A study of Rattus norvegicus with 9 samples.

Results

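The RNA-seq table of samples labelled as cultured rat cardiac fibroblasts held 22512 rows, of which 13 carried the locus tag KEF51 and a number from p01 to p13. The 7 entries described here are p01, p02 and p08 to p12, taken over all 9 libraries. They were chosen by their numbers, with their FPKM values and group differences from earlier results of these data known, so their levels and the differences between groups are given as a description. FPKM is a fragment number scaled for the length of the gene and for the fragments of the library, and it allows levels of genes of different length to be compared.

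Cardiac fibroblasts are the matrix-producing cells of the heart. The paper describes cells from neonatal rats that were used at an early passage. In the blank group (n = 3 libraries) neither AngII nor vericiguat was given. The AngII group (n = 3) received angiotensin II, a peptide hormone that drives fibroblasts towards a matrix-producing state, at 0.1 µM over 72 h. The vericiguat + AngII group (n = 3) was first kept with 1.0 µM vericiguat, a stimulator of soluble guanylate cyclase, for 24 h, and AngII at 0.1 µM then followed over 72 h. These doses, times and order are those of the submitters' sample notes. The methods of the paper, in the section on migration assays, instead give AngII for 24 h, with vericiguat added afterwards for another 24 h. Which of these the libraries had is not settled here. No group with vericiguat alone was analysed here. Nothing in the labels says that the 3 libraries of a group came from separate cultures, so the spread between them may be technical.

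Mitochondrial DNA of vertebrates encodes 13 proteins, all of them subunits of the respiratory chain and of ATP synthase. Of these, 7 are subunits of complex I, the NADH dehydrogenase that takes electrons from NADH, 1 is cytochrome b of complex III, 3 are subunits of complex IV, the cytochrome c oxidase that passes electrons to oxygen, and 2 belong to ATP synthase (complex V). The genes are transcribed as long polycistronic RNAs that are cut into single messages. Heart tissue is rich in these messages. Every gene but ND6 is read from the same strand, and ATP8 and ATP6 overlap in their sequence.

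By their numbers alone, in the usual vertebrate gene order from ND1 to cytochrome b, the 7 entries would be the 7 mitochondrial subunits of complex I. The data went against this reading. Because each FPKM value is a whole number of fragments divided by a gene length and a library total, the lengths could be read back from the values, and for each of the 13 entries the smallest length that made the values of all 9 libraries whole within 0.05 of a fragment was taken. The lengths of the 7 entries were 1139 bases for p01, 525 for p02, 680 for p08, 204 for p09, 684 for p10, 1542 for p11 and 1044 for p12. The other 6 entries had 1812 bases for p03, 1378 for p04, 297 for p05, 347 for p06, 784 for p07 and 955 for p13. Fragment numbers computed with these lengths lay within 0.00782 of a whole number in every library.

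Ranked by length, 1 of the 13 entries had the rank of its gene when the numbers were read forward, and 13 of 13 did when they were read backward, from p13 as ND1 to p01 as cytochrome b. The rank correlation across the 13 entries was 0.67 forward and 1 backward. The backward reading was tried after the lengths were seen. It gives p01 the length rank of cytochrome b, p02 of ND6, p08 of ATP6, p09 of ATP8, p10 of CO2, p11 of CO1 and p12 of ND2. On this reading 2 of the 7 entries, p02 and p12, are subunits of complex I, and the other complex I genes are p03 (ND5), p04 (ND4), p05 (ND4L), p06 (ND3) and p13 (ND1). These names remain an inference from length and number, and no mitochondrial gene was in the rat gene table used here, so the entries are called by their numbers. No sequence of them was in the files used here.

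**Figure D1:**
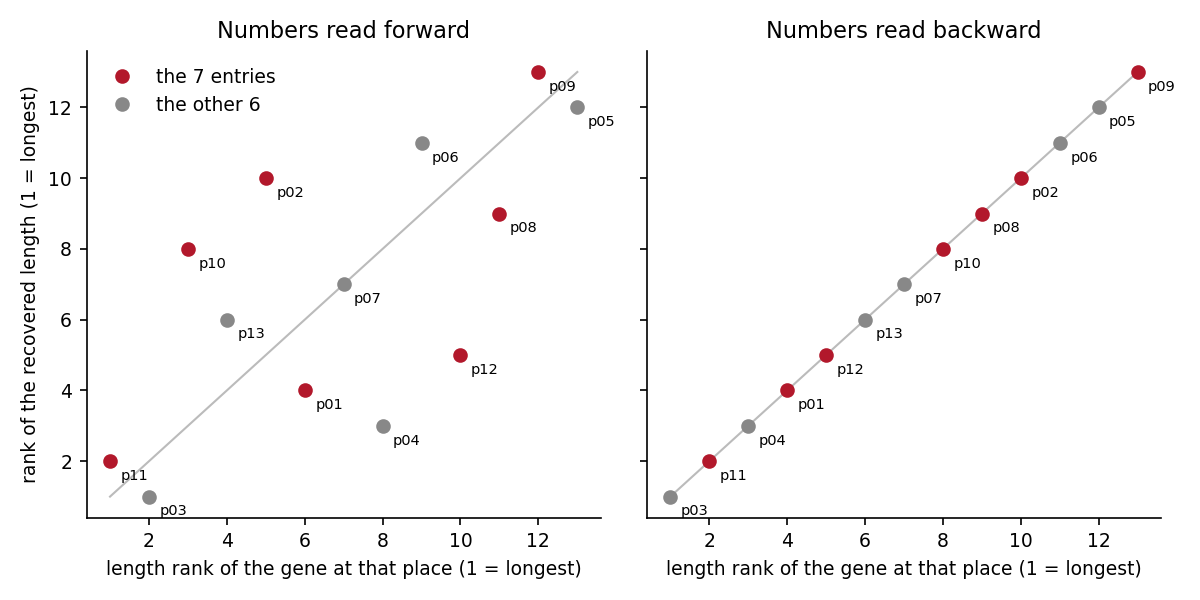
Rank of the recovered length of each of the 13 KEF51 entries (vertical axis, 1 is the longest) against the length rank of the mitochondrial gene at its place in the usual vertebrate order (horizontal axis), with the numbers read forward on the left and backward on the right. Red points are the 7 entries and grey points the other 6. Read forward, 1 of 13 points lies on the line of equal rank, and read backward all 13 do.

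The libraries stood apart before any single gene was considered. Between 260 and 1542 genes reached an FPKM of 1 in the 6 blank and AngII libraries, against 11280 to 11565 in the 3 vericiguat + AngII libraries. The 13 entries together held 97.6 to 97.9% of the summed FPKM of a blank library, 96.7 to 97.5% in the AngII group and 45.3 to 52.3% in the vericiguat + AngII group. The submitters' processing notes name the rabbit assembly OryCun2.0, whereas the organism label is rat. The library totals read back from the values were 9123535 to 10553439 fragments in the blank group, 6302913 to 7904367 in the AngII group and 6617798 to 7770548 in the vericiguat + AngII group. The fragment numbers of the 13 entries came to 111 to 128% of that total in the blank group and 124 to 137% in the AngII group, against 36.8 to 47.3% in the vericiguat + AngII group, and what the total counted is not given in the sources used here. The smallest fragment number behind a value of the 7 entries was 12581, a counting error of at most 0.892%, below the lowest coefficient of variation between libraries of a group (3.01%).

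The label of the cells was set beside listed markers found by symbol. Few were found, and the sums are over different genes, so they do not decide whether the label holds. Of 14 fibroblast markers, 4 were listed (COL1A2, DCN, LUM and FN1), and their summed FPKM was 1.70 to 24.7 in the blank group, 7.09 to 25.7 in the AngII group and 368 to 527 in the vericiguat + AngII group. Of 15 cardiomyocyte markers, 6 were listed, with sums of 6.80 to 9.06, 45 to 109 and 3812 to 6077 in the same order. Endothelial markers (2 of 7 listed) had sums of up to 0.421 in the blank and AngII groups and of 81.4 to 86.2 in the vericiguat + AngII group, and smooth muscle and pericyte markers (2 of 7) had sums of up to 21.1 and of 191 to 302. Red blood cell markers (2 of 6) had sums of up to 398 and of 8364 to 15130. No macrophage marker of 7 was listed by symbol. In the blank group 1 listed cardiomyocyte marker and 1 listed endothelial marker were at 0 in all 3 libraries, and in the other groups none was. The sums of all these listed markers were higher in the vericiguat + AngII group. This was not particular to markers, since in the fit described below 99.5% of all tested genes were called higher there against AngII and 99.3% against blank. Most FPKM values of the 7 entries below were lower in that group. The part of the cell make-up in those values was not tested. In each group the red blood cell sums lay above the fibroblast sums. The cardiomyocyte sums lay above the fibroblast sums in AngII and in vericiguat + AngII and overlapped with them in blank. Few markers of each list were found, and what the libraries contained was not tested. In bulk libraries fewer cells of a type and less RNA per cell cannot be told apart.

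As a group, the 7 entries made up the largest share of the KEF51 signal in blank, a lower share in AngII and the lowest in vericiguat + AngII. Their share of the FPKM of the 13 entries was 84.6%, 82.5% and 83.9% under blank conditions. It was 76.6%, 76.4% and 79.6% under AngII and 64.6%, 63.5% and 61.1% under vericiguat + AngII. The groups did not overlap, and the means were 83.7 ± 1.1%, 77.5 ± 1.82% and 63.1 ± 1.77% (SD, n = 3 each). With fragment numbers in place of FPKM the means were 80.3%, 74% and 57.7% in the same order. As a share of the whole library the 7 entries held 80.6 to 82.9% of the FPKM in the blank group, 74 to 77.0% in the AngII group and 29.3 to 33.2% in the vericiguat + AngII group.

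**Figure D2:**
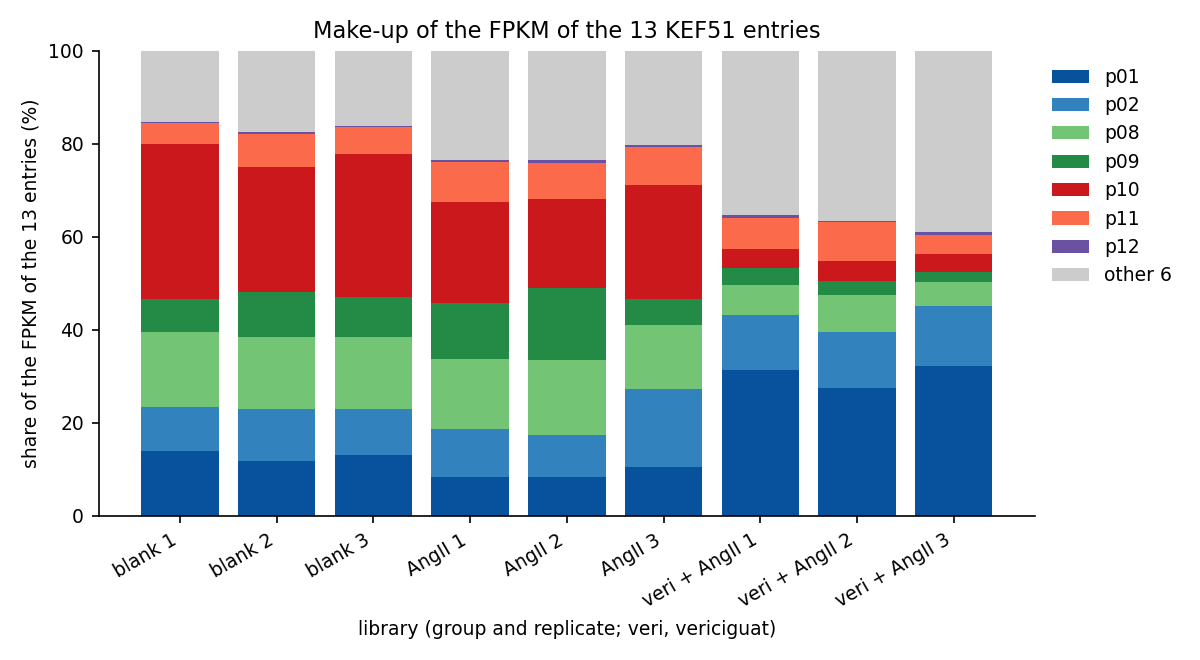
Share of each of the 7 entries, and of the other 6 entries together (grey), in the summed FPKM of the 13 KEF51 entries (vertical axis, percent), 1 bar per library. The red p10 segment is 27.0 to 33.3% in the blank libraries and 4.03 to 4.48% in the vericiguat + AngII libraries, where the dark blue p01 segment reaches 27.5 to 32.3%.

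The lead entry changed between the groups. In the blank group the order of mean FPKM was p10, p08, p01, p02, p09, p11 and p12, and the ranges over libraries overlapped only between p02 and p09 and between p09 and p11. In the AngII group the order was p10, p08, p02, p09, p01, p11 and p12. There p10 and p12 stood clear of their neighbours, while p08 overlapped with p02, p02 with p09, p09 with p01 and p01 with p11. In the vericiguat + AngII group the order was p01, p02, p08, p11, p10, p09 and p12, and overlap was present between p08 and p11 and between p11 and p10. p12 was the lowest of the 7 in all 9 libraries.

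KEF51_p10 has the length rank of CO2, the complex IV subunit that receives electrons from cytochrome c. Its FPKM was 482542, 436658 and 469560 under blank conditions, 385287, 337609 and 380292 under AngII, and 14472, 21068 and 18280 under vericiguat + AngII. Every vericiguat + AngII library lay below every library of the other groups, and the AngII libraries lay below the blank libraries. The mean was 20.5 times lower in the vericiguat + AngII group than in the AngII group and 25.8 times lower than in the blank group, the widest gaps of the 7. Its share of the summed FPKM of the 7 was 36.3 ± 3.33% in blank, 28.0 ± 2.88% in AngII and 6.67 ± 0.358% in vericiguat + AngII (SD, n = 3 each).

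KEF51_p11 has the length rank of CO1, the catalytic subunit of the same complex. Its FPKM was 66520, 114104 and 88991 under blank conditions, 152467, 136565 and 126704 under AngII, and 23499, 38574 and 17892 under vericiguat + AngII. The 3 groups did not overlap, with AngII highest and vericiguat + AngII lowest. The mean of the vericiguat + AngII group was 5.20 times below that of the AngII group. The pair did not keep its proportion. The ratio of p10 to p11 was 7.25, 3.83 and 5.28 under blank conditions, 2.53, 2.47 and 3.00 under AngII, and 0.616, 0.546 and 1.02 under vericiguat + AngII, with no overlap between groups.

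KEF51_p01 has the length rank of cytochrome b, the complex III subunit that carries the quinone-binding sites. Its FPKM was 201274, 190557 and 200398 under blank conditions, 150503, 149455 and 164375 under AngII, and 110779, 129390 and 146271 under vericiguat + AngII. The groups did not overlap, yet the means were only 1.20 times apart between vericiguat + AngII and AngII and 1.53 times apart between vericiguat + AngII and blank, the smallest gap of the 7 in the first of these. Of the summed FPKM of the 7, p01 made up 15.5 ± 1.08% in blank, 11.8 ± 1.28% in AngII and 48.2 ± 4.75% in vericiguat + AngII (SD, n = 3 each). The ratio of p01 to p10 stayed between 0.391 and 0.443 in all 6 blank and AngII libraries and was 7.65, 6.14 and 8.0 in the vericiguat + AngII libraries. The blank and AngII groups overlapped in this ratio.

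**Figure D3:**
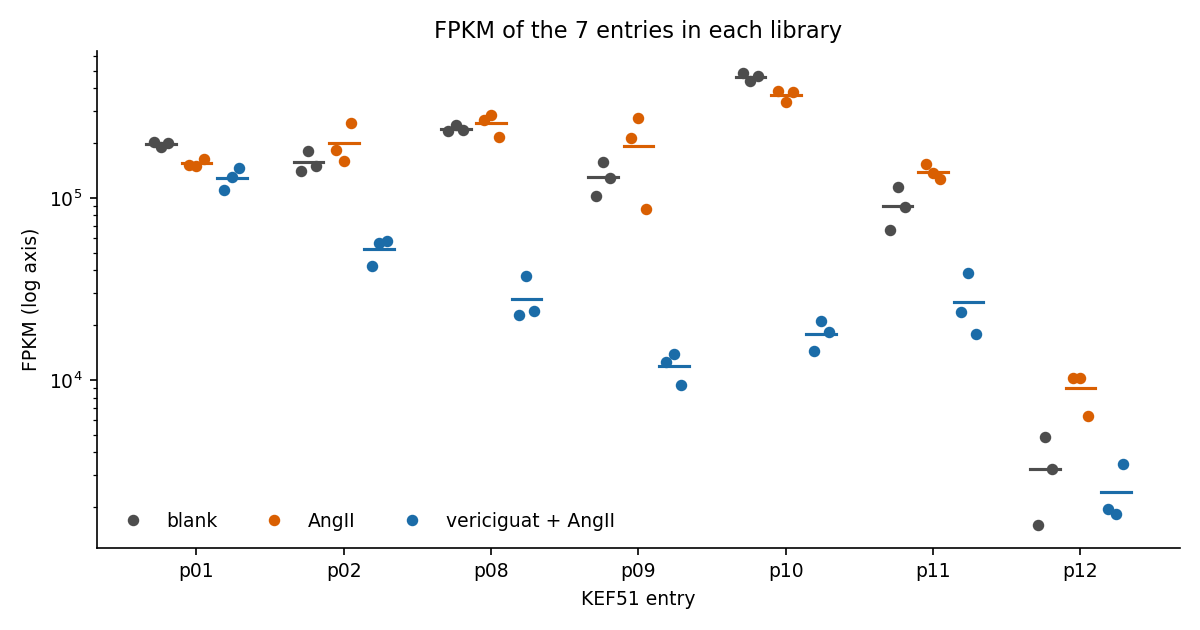
FPKM of the 7 entries (log vertical axis) in the blank (grey), AngII (orange) and vericiguat + AngII (blue) libraries, with 1 point per library and a bar at the group mean. The blue points of p10 lie at 14472 to 21068, against 337609 to 482542 for the grey and orange points, while those of p01 lie at 110779 to 146271, near the other groups.

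KEF51_p08 and KEF51_p09 have the length ranks of ATP6, the channel-forming subunit of ATP synthase, and ATP8, a small subunit beside it. The FPKM of p08 was 233496, 250672 and 235062 in blank, 265907, 285755 and 216386 in AngII, and 22750, 37234 and 23797 in vericiguat + AngII. Blank and AngII overlapped, and the vericiguat + AngII libraries lay below both, 9.17 times below AngII by the means. The FPKM of p09 was 102895, 156704 and 128911 in blank, 214304, 274219 and 86734 in AngII, and 12493, 13839 and 9319 in vericiguat + AngII. It was the most variable of the 7 within the AngII group, with a coefficient of variation of 49.9%, since AngII replicate 3 lay below all blank libraries and the other AngII replicates lay above them. The ratio of p08 to p09 was 2.27, 1.60 and 1.82 in blank, 1.24, 1.04 and 2.49 in AngII, and 1.82, 2.69 and 2.55 in vericiguat + AngII. All 3 groups overlapped in this ratio. If the pair are the overlapping genes ATP6 and ATP8, how fragments in the overlap were assigned is not given in the sources used here, and the separate levels are uncertain to that extent.

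KEF51_p02 and KEF51_p12, which have the length ranks of the complex I subunits ND6 and ND2, differed widely in level. The FPKM of p02 was 139601, 181566 and 149923 in blank, 182447, 159910 and 259043 in AngII, and 42002, 56674 and 57985 in vericiguat + AngII. Blank and AngII overlapped, and vericiguat + AngII lay below both. ND6 lies on the strand opposite to the other genes, and whether fragments were counted by strand is not given in the sources used here, so RNA of the opposite strand cannot be told apart from it. The FPKM of p12 was 1592, 4873 and 3255 in blank, 10310, 10282 and 6346 in AngII, and 1963, 1829 and 3473 in vericiguat + AngII. The AngII libraries lay above those of both other groups, which overlapped with each other, and the AngII mean was 2.77 times the blank mean. As a share of the 7, p12 was 0.130 to 1.25% over the 9 libraries. The coefficient of variation of p12 was 50.6% in blank, 25.4% in AngII and 37.7% in vericiguat + AngII, against 3.01%, 5.38% and 13.8% for p01.

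The ratio of p01 to p02 was 1.44, 1.0 and 1.34 under blank conditions, 0.825, 0.935 and 0.635 under AngII, and 2.64, 2.28 and 2.52 under vericiguat + AngII. It separated the 3 groups without overlap. The ratio of p10 to p09 ran from 2.79 to 4.69 in blank, from 1.23 to 4.38 in AngII and from 1.16 to 1.96 in vericiguat + AngII, and the AngII libraries overlapped with both other groups. The ratio of p11 to p12 was 23.4 to 41.8 in blank, 13.3 to 19.97 in AngII and 5.15 to 21.1 in vericiguat + AngII. Ratios and shares within a library do not change when all values of a library are multiplied by the same factor.

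**Figure D4:**
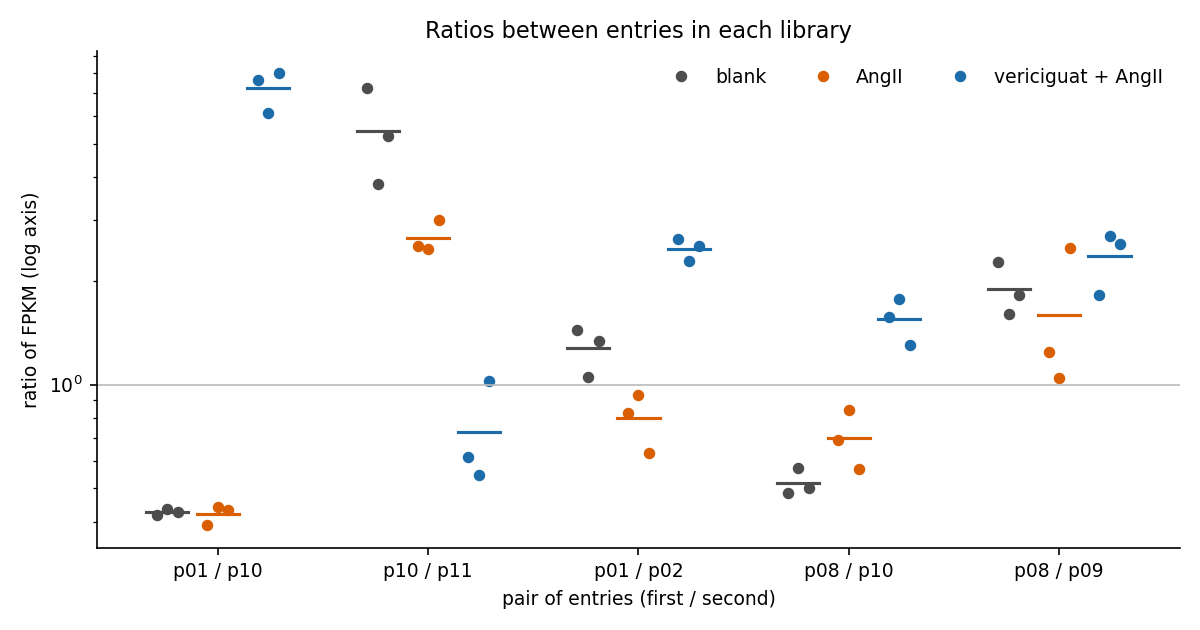
Ratios of FPKM between 5 pairs of entries (log vertical axis; the grey line is a ratio of 1) in the blank (grey), AngII (orange) and vericiguat + AngII (blue) libraries, with 1 point per library and a bar at the mean. For p01 / p10 the blue points lie at 6.14 to 8.0 and all others at 0.391 to 0.443, whereas for p08 / p09 the points of the groups overlap.

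The proportions of the 7 entries to each other were then compared between whole libraries, as the root mean square difference of their log2 FPKM after each library was centred on its own mean over the 7. Within a group this distance was 0.23 to 0.57 in blank, 0.18 to 0.70 in AngII and 0.28 to 0.61 in vericiguat + AngII, over 3 pairs of libraries each. Between blank and AngII it was 0.42 to 1.1 over 9 pairs, which overlapped with the distances within groups. Between vericiguat + AngII and AngII it was 1.07 to 1.59, and between vericiguat + AngII and blank 1.24 to 1.85, both above every distance within a group. With 3 libraries against 3 an exact two-sided permutation test of a single value cannot give a p below 0.1, so none was run.

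The other 6 entries showed where the 7 differed. In the vericiguat + AngII group p03, of the length rank of ND5, was higher than in both other groups without overlap, at 40184 to 50949 FPKM against 21035 to 38984. p04, of the rank of ND4, overlapped with both, as did p05 and p06. p07, of the rank of CO3, and p13, of the rank of ND1, were lower than in both without overlap, by 5.52 and 5.70 times against AngII. When all 13 entries were grouped by the complex their length ranks point to, a grouping made after the lengths were seen, the 7 complex I entries held 19.5 ± 2.00% of the FPKM of the 13 in blank, 24.3 ± 0.682% in AngII and 42.2 ± 3.61% in vericiguat + AngII (SD, n = 3 each). The 3 complex IV entries held 43.5 ± 1.92%, 40.5 ± 4.39% and 18.0 ± 4.31%, and the 2 ATP synthase entries 24.1 ± 0.997%, 26.0 ± 6.13% and 9.38 ± 1.85%. The complex I share and the complex III share (p01, 30.4 ± 2.54%) were higher in every vericiguat + AngII library than in any other, and the shares of complex IV and ATP synthase were lower. The level of the complex I entries was not higher. Their summed FPKM was 147409 to 208725 in vericiguat + AngII, below 258421 to 351061 in blank and 386096 to 436752 in AngII. Of the complex I share, p02 and p12 together made up 10.4 ± 0.947, 12.5 ± 3.99 and 12.8 ± 0.643 percentage points.

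Group differences were also set beside those of all 10908 genes that reached an FPKM of 1 in 3 or more libraries. All 7 entries passed this filter. A gene was called when the difference in log2(FPKM + 1) was at least 1 in size and the adjusted p of limma was under 0.05, and the entries were chosen with their values in these contrasts known, so nothing is read from their counts. For AngII against blank 0 of the 7 were called, with 1.55% of all tested genes called in either direction, and 4 of the 7 had an unadjusted limma p under 0.05, as had 14.3% of all tested genes. The log2 differences there ran from -0.35 for p01 to 1.58 ± 0.51 (SE) for p12, with a median of 0.33 beside 0.06 over all tested genes. With a pseudocount of 0.1 in place of 1, p12 was called.

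For vericiguat + AngII against AngII 6 of the 7 were called lower and none higher, while 0.101% of all tested genes were called lower and 99.5% higher. Most tested genes passed the filter only through the vericiguat + AngII libraries, so their share called higher, here and against blank, was largely set by the filter. Without the filter 11237 of 18281 genes were called higher against AngII, and with median-ratio scaling 255 of 10908 were. The log2 differences were -4.37 ± 0.13 for p10, -3.88 ± 0.36 for p09, -3.22 ± 0.18 for p08, -2.45 ± 0.27 for p11, -1.92 ± 0.19 for p02, -1.92 ± 0.51 for p12 and -0.27 ± 0.10 for p01 (SE from the limma fit). Their median was -2.45 beside 2.76 over all tested genes. For vericiguat + AngII against blank 5 of the 7 were called lower, with 0.11% of all tested genes called lower and 99.3% higher. The differences were -4.71 ± 0.13 for p10, -3.44 ± 0.36 for p09, -3.14 ± 0.18 for p08, -1.79 ± 0.27 for p11, -1.59 ± 0.19 for p02, -0.62 ± 0.10 for p01 and -0.34 ± 0.51 for p12. The comparisons with vericiguat + AngII share those 3 libraries, and the comparisons with AngII share the AngII libraries.

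**Figure D5:**
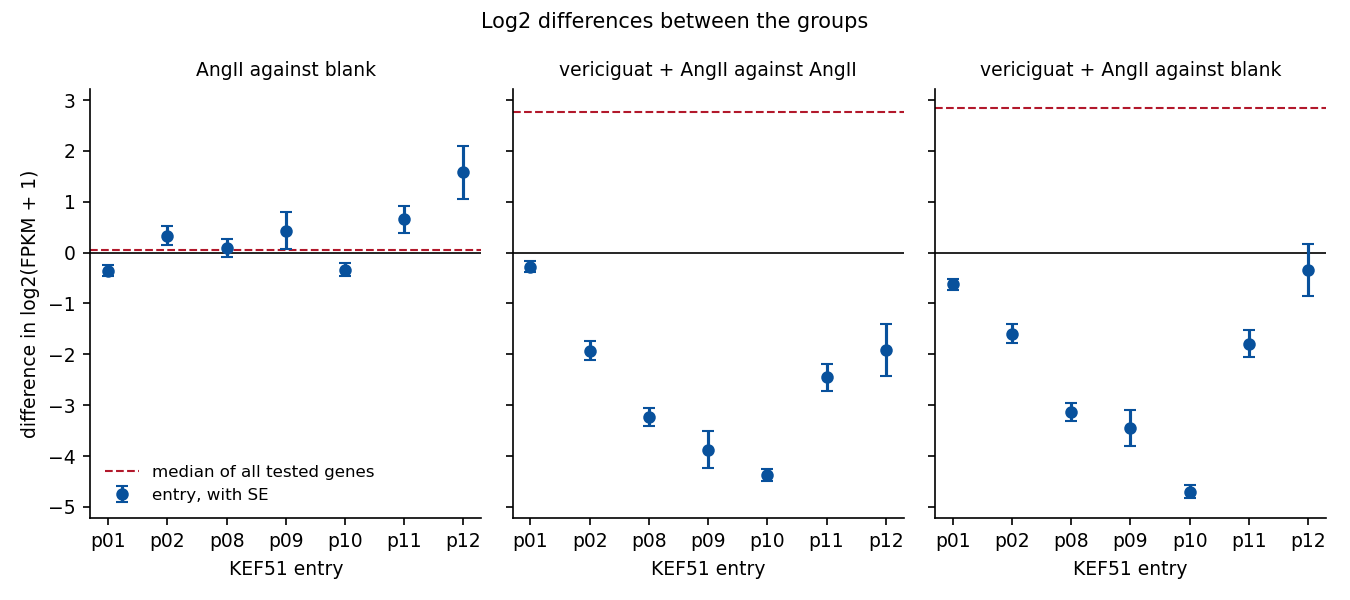
Difference in log2(FPKM + 1) of the 7 entries between groups (vertical axis; points with SE from the limma fit across 10908 genes), in 3 panels for the 3 comparisons, with a dashed red line at the median of all tested genes. In both panels with vericiguat + AngII all 7 points lie below 0, from -0.27 to -4.37 against AngII and from -0.34 to -4.71 against blank, and the median line lies at 2.76 and 2.83.

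The direction of some entries rested on how libraries were scaled. When each library was brought to the same summed FPKM, p01 was 0.76 higher in vericiguat + AngII than in AngII and 0.25 higher than in blank on the log2 scale, and p12 was 0.53 higher than in blank. When the rows other than the 13 entries were brought to the same sum, or median-ratio scaling was used, all 7 were called lower in both comparisons, with log2 differences from -3.31 to -7.41 and from -5.64 to -9.74 against AngII. Under quantile normalization p01 was 1.80 higher than in AngII and 1.06 higher than in blank, and p02 was 0.10 and 0.28 higher. Median-ratio scaling also changed the split over all genes, of whose calls 56.2% were higher against AngII in place of 99.9%, with a median difference of 0.09. p08, p09, p10 and p11 were lower in vericiguat + AngII under every scaling tried. For AngII against blank the sign was less settled, and p02, p08, p09 and p11 turned from higher to lower under median-ratio scaling, with -0.40, -0.65, -0.30 and -0.08.

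Genes of related function were sought by symbol. None of 37 nuclear subunits of complex I and none of 17 assembly factors was listed by symbol in this table, in which 20346 of 22512 rows had only a LOC number. Of 38 genes of mitochondrial transcription and RNA handling 4 were listed, and all 4 were called higher in vericiguat + AngII against AngII and against blank, as 99.5% and 99.3% of all tested genes were. These 4 passed the filter only through the vericiguat + AngII libraries. Outside that group an FPKM of 1 was reached only by SSBP1, in AngII replicate 3. Their direction was therefore set by the filter, and nothing is read from these calls. SSBP1, which binds single-stranded mitochondrial DNA, was at 0.163 to 0.566 FPKM in blank, 0.273 to 1.32 in AngII and 14.3 to 21.3 in vericiguat + AngII. TWNK, the mitochondrial replicative helicase, reached at most 0.279 FPKM in blank and AngII and 2.35 to 3.13 in vericiguat + AngII. RNASEH1, which cuts RNA in RNA and DNA hybrids, was at 0 in the 3 blank libraries and at 2.67 to 3.83 in vericiguat + AngII. PRORP, the nuclease that cuts tRNAs out of mitochondrial transcripts, was at 0 in blank and at 1.40 to 2.00 in vericiguat + AngII. The median log2 difference of the 4 was 1.71 against AngII and 1.92 against blank, beside 2.76 and 2.83 over all tested genes.

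Genes outside the KEF51 rows were then compared with the mean pattern of the 7 over the 9 libraries. The root mean square difference of centred log2(FPKM + 1) from that mean pattern was 0.30 to 1.06 for the 7 entries themselves and 0.29 to 1.44 for the other 6. Among 1085 tested genes with a symbol the smallest were 1.38 for SELP, 1.56 for DYNLT4, 1.61 for IGF1, 1.63 for ADORA2B and 1.64 for AMHR2. The distance of a gene without change between the libraries was not computed, so these values are not read as likeness. Apart from SELP, these named genes went the other way. DYNLT4, IGF1, ADORA2B and AMHR2 were highest in the vericiguat + AngII libraries, where the mean pattern of the 7 was lowest. IGF1, for example, was at 1.01 to 1.36 FPKM there and at most 0.294 in the other libraries. None of these 1085 lay within the highest value of the 7 entries, while 2 rows named only by a LOC number did, LOC100353654 and LOC127482727, which were looked up after the values were seen. These genes were at most 1.91 FPKM in any library, so their patterns rest on low values.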

How the data were processed

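Total RNA of samples labelled as cardiac fibroblasts (9 libraries, 3 in each of 3 groups) was sequenced after Illumina TruSeq preparation. Per the submitters' processing notes, FastQC 0.11.9, Trimmomatic 0.39, HISAT2 2.2.1 and featureCounts 2.0.1 were used with OryCun2.0. The deposited values are FPKM per gene, made by the authors and rounded to 3 decimals, in a single table, and all 9 columns matched a library by name. The members, gene lists and comparisons were chosen with earlier results of these data known.

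Fragment numbers, gene lengths and library totals were read back from the rounding steps of the FPKM values. Lengths of the 13 entries used all 9 libraries. Those of the other genes were set in the 3 vericiguat + AngII libraries, and in the other 6 libraries 90.0 to 91.3% of low values were then whole within 0.1, against 20% if spread evenly. In simulated data of 22512 genes, 13 of 13 lengths and 9 of 9 totals were recovered. Depth is the library total so obtained. Shares, ratios and distances were computed from FPKM within each library. Group differences were fitted with limma 3.58.1 (R 4.3.3) on log2(FPKM + 1) over all 9 libraries with a mean-variance trend, Benjamini-Hochberg adjustment and no covariate, over genes that reached an FPKM of 1 in 3 or more libraries. The fold change understates that of low genes on this scale. Listed genes were matched by symbol, and the 5 genes closest to the mean pattern of the 7 entries were named by rule. Alternatives were the pseudocount, the filter, the scaling, the libraries in the fit, a replicate block, no trend and each library left out.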

Additional observations from a re-analysis of the deposited data

How the results depend on the processing

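For AngII against blank, 0 of the 7 entries were called under every alternative other than a pseudocount of 0.1, which gave 1. For vericiguat + AngII against blank, bringing libraries to the same sum gave 3 in place of 5, and against AngII the count ran from 4 to 7 over the alternatives. Under quantile normalization p02 turned to 0.10 against AngII and 0.28 against blank on the log2 scale. Over all tested genes, calls for AngII against blank ran from 0, when only the compared groups were fitted or blank replicate 3 was left out, to 969 with a pseudocount of 0.1, and calls against AngII from 378 to 11248. The mean share of the 7 in the 13 without p10 was 76.5% in blank, 71.3% in AngII and 61.4% in vericiguat + AngII. With p10 kept and fragment numbers in place of FPKM it was 80.3%, 74% and 57.7% in the same order. Both were chosen after seeing the data. Lengths from 1 group of libraries alone, also chosen after seeing the data, matched the backward ranks in 2, 0 and 1 of 13 entries for blank, AngII and vericiguat + AngII with fragments whole within 0.05, where several lengths are whole by construction with so few libraries, and in 4, 9 and 9 within 0.01, a limit set after the former result. All 13 lengths then equalled, or divided, those from 9 libraries. Without AngII replicate 1 the number was 9, and without any other single library 13. Of 399 refitted log2 differences of the 7, 72 moved by more than the spread between libraries, all under the 4 scalings, and in 2 more, those of p02 given above, an entry called at first changed sign. Entries that were not called also changed sign under some scalings. The replicate numbers did not pair the libraries (correlations of deviations from -0.06 to 0.06), and with the replicate block 0, 6 and 5 of the 7 were called for AngII against blank, vericiguat + AngII against AngII and vericiguat + AngII against blank, with 7 genes called in all for the first. The cause of these changes was not tested.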
